A study of Mus musculus with 3 samples.

Results

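A set of 96 cells among 29513, sequenced one by one from non-small cell lung cancer of the mouse, carried the transcripts of Hmga2 and Rhox5 together with keratin RNA. They are called Hmga2 Rhox5 Krt8 cells. The libraries were labelled PD-L1, AI-Exo and PBS, 1 library for each, and held 14, 40 and 42 of these cells. The labels leave these names as they are and give no strain, genotype, sex, age, dose, time or number of pooled animals. The design text speaks of immune cells after drug treatment, and whether immune cells were enriched before capture, which could set the number of tumour cells recovered, is not stated in it. The title of the series names exosomes that inhibit autophagy.

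A barcode was a member when it held at least 5 UMIs (unique molecular identifiers, which tag single captured transcripts) of Hmga2 and Rhox5 together and at least 1 UMI of Krt8 or Krt18. It also had to hold no UMI of the T cell genes Cd3e and Cd3d or the B cell genes Cd79a and Ms4a1. The cells were thus chosen by their UMIs of these 8 genes, whose values are given as a description. The member with the smallest Hmga2 and Rhox5 sum had 8 UMIs in PD-L1, 14 in AI-Exo and 12 in PBS, and the median member had 95.5, 92.0 and 104.0. Just outside the threshold, 2 PD-L1 cells, 1 AI-Exo cell and 1 PBS cell held a sum of 3 or 4 UMIs.

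Hmga2 encodes an architectural chromatin protein that binds AT-rich DNA, is abundant in the embryo, is silent in most adult tissues and returns in many carcinomas. Rhox5 is an X-linked homeobox gene of the reproductive system and placenta that is also switched on in many rodent tumours. Krt8 and Krt18 encode the type II and type I keratins that pair into the intermediate filaments of simple epithelia, and the unpaired proteins are unstable.

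The keratin genes are neighbours on chromosome 15, with 23873 bases between the Krt8 gene (chr15:101996711-102004342) and the Krt18 gene (chr15:102028216-102032026) in GRCm38.p6. Krt8 RNA was present in all members of these libraries and Krt18 RNA in few, so the 250 bases before each start are shown, from RefSeq, with CG dinucleotides in capitals. The Krt8 stretch (chr15:102004343-102004592, minus strand) held 3 CG pairs, and that of Krt18 (chr15:102027966-102028215, plus strand) held 12, beside a median of 6 over the promoters of 27025 genes.
Krt8: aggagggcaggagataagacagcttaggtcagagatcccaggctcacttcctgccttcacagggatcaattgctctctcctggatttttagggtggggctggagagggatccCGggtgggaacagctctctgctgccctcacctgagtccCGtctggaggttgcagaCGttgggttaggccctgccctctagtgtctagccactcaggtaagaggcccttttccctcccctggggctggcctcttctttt
Krt18: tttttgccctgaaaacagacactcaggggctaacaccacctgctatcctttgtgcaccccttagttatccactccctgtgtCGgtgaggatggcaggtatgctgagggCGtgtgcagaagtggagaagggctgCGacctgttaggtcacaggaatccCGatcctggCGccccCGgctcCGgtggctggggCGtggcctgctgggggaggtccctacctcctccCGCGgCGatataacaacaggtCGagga

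A second pair of promoters comes from Ube2c and Slc2a1, members of the G2/M and hypoxia lists, whose values differed between libraries. Capitals in Ube2c (chr2:164769679-164769928, plus strand, GRCm38.p6) mark CCAAT, the core bound by NF-Y, and TTTGAA, the core of the cell cycle homology region, each searched on both strands. Capitals in Slc2a1 (chr4:119108495-119108744, plus strand, GRCm38.p6) mark ACGTG, the core of the hypoxia response element, also searched on both strands. Ube2c held 6 CCAAT matches, of which a pair overlapped head to head, and 1 TTTGAA match that overlapped none of them, and Slc2a1 held 1 ACGTG match.
Ube2c: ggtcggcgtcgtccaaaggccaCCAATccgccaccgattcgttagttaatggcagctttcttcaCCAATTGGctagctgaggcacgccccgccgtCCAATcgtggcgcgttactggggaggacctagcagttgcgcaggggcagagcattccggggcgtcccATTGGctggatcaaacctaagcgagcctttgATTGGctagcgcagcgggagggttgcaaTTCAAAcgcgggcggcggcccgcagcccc
Slc2a1: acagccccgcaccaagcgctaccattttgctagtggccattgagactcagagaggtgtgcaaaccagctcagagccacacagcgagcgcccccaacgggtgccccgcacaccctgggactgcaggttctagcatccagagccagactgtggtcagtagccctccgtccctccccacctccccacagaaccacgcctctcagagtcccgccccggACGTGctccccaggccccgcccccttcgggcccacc
CCAAT occurred in the promoters of 19 of the 26 G2/M genes found in RefSeq (73.1%) and in 37.5% of all 27025 genes, and TTTGAA in 9 of those 26 (34.6%) and in 18.3% of all genes. ACGTG occurred in 12 of the 16 hypoxia genes found (75%), in 11 of 18 glycolysis genes (61.1%), in 8 of the 26 G2/M genes (30.8%) and in 18.5% of all genes. These are matches of letters in a window and no evidence of binding.

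The label tumour-like was checked against lineage markers. Levels are CPM, the UMIs of a gene summed over the members of a library per 1000000 UMIs of those members. Epithelial junction and keratin genes other than the pair in the rule were nearly absent: the 18 listed genes together reached 13.0, 13.7 and 9.92 CPM in PD-L1, AI-Exo and PBS members. None reached a mean of 10 CPM, and 11, 9 and 11 of the 18 had no UMI. Epcam, an adhesion protein of epithelia, stood at 2.36, 0.490 and 0.472 CPM, and Cdh1, which encodes E-cadherin, at 1.18, 0.490 and 0.472 CPM.

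Lung lineage genes were low as well. Nkx2-1, the transcription factor of lung epithelium, had 1 UMI in all members together, in AI-Exo (0.490 CPM), and Sftpc, the surfactant gene of alveolar type II cells, stood at 0, 4.90 and 3.31 CPM. Lung epithelial cells in the same libraries, though only 3, 1 and 2 cells, had Sftpc at 128771, 54793 and 18183 CPM. Their Krt18 stood at 621, 239 and 336 CPM, whereas members had 2.36, 25.5 and 8.03 CPM. The lung epithelial cells were chosen by surfactant or Scgb1a1 UMIs and by Epcam, Krt8 and Krt18 UMIs. Their levels of these genes were thus partly set by the choice and are a description.

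Mesenchymal transcription factors were present. Twist1 stood at 139, 137 and 143 CPM, Twist2 at 199.5, 168 and 167 CPM and the mesenchymal homeobox gene Prrx1 at 106, 113 and 117 CPM, each with overlapping counting intervals in the 3 libraries. Vim, the intermediate filament of mesenchymal cells, stood at 2543, 2230 and 2536 CPM. The fibroblast collagen genes Col1a1 and Col1a2 reached at most 0.490 CPM in any library, and the smooth muscle genes Acta2 and Tagln and the N-cadherin gene Cdh2 had no UMI in any member. Other fibroblast genes were present. Of 10 listed fibroblast markers, 5 reached a mean of 10 CPM over PD-L1 and PBS members, among them Col3a1 and Gsn. Keratin RNA was part of the rule and is no independent evidence of cell type, so the cells are called by the genes of that rule.

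**Figure D1:**
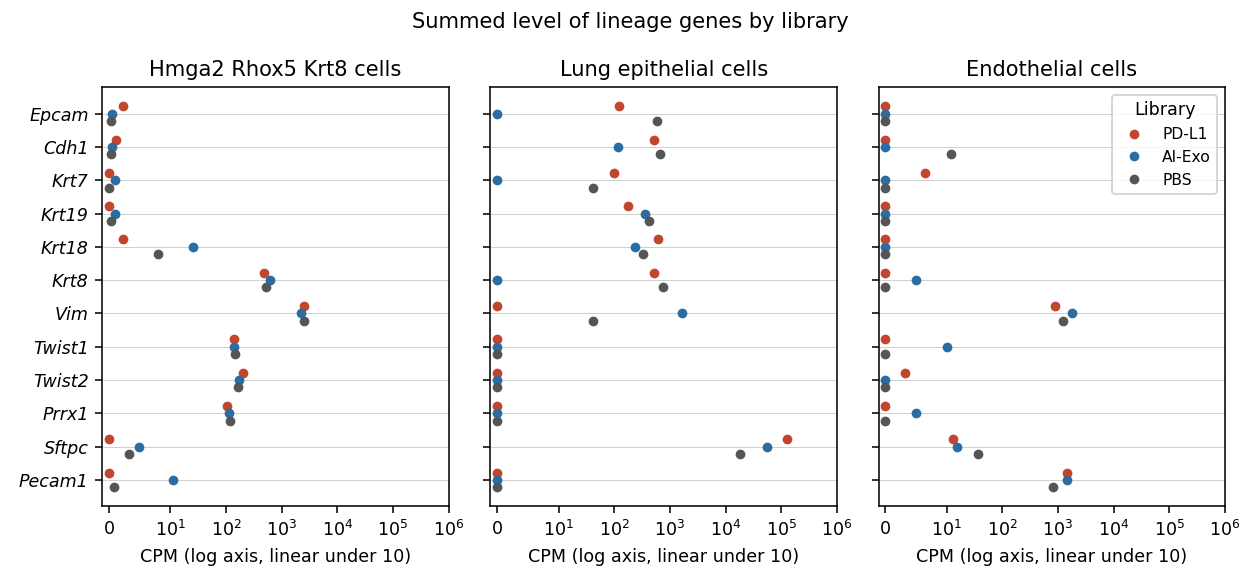
Summed CPM of 12 lineage genes (rows) in Hmga2 Rhox5 Krt8 cells, lung epithelial cells and endothelial cells (panels), 1 point per library, on an axis that is linear under 10 and logarithmic above. Krt8 was present in members and in the lung epithelial cells of PD-L1 and PBS, but both sets were chosen in part by Krt8 UMIs. Members had Epcam and Cdh1 under 3 CPM, and had Twist1, Twist2 and Prrx1 above 100 CPM.

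Rhox5, Hmga2 and Krt8 differed between libraries by under 1.5-fold. Summed Rhox5 was 1308, 1324 and 1595 CPM in PD-L1, AI-Exo and PBS members, and Hmga2 was 535, 689.7 and 719 CPM. Krt8 was 479, 624 and 525 CPM. Every member had Krt8 RNA, but Krt18 UMIs were found in 1 of 14, 10 of 40 and 7 of 42 members. Among endothelial cells, which should lack it, 0 of 66, 0 of 42 and 0 of 29 had a Krt18 UMI, at medians of 3560.5, 3617.5 and 3534.0 UMIs per cell. With members thinned to 5000 UMIs each, 0 of 13, 4 of 40 and 2 of 42 had one. The endothelial cells are thus too shallow to show whether Krt18 set members apart from them. One PBS member entered through Rhox5 alone and had no Hmga2 UMI.

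**Figure D2:**
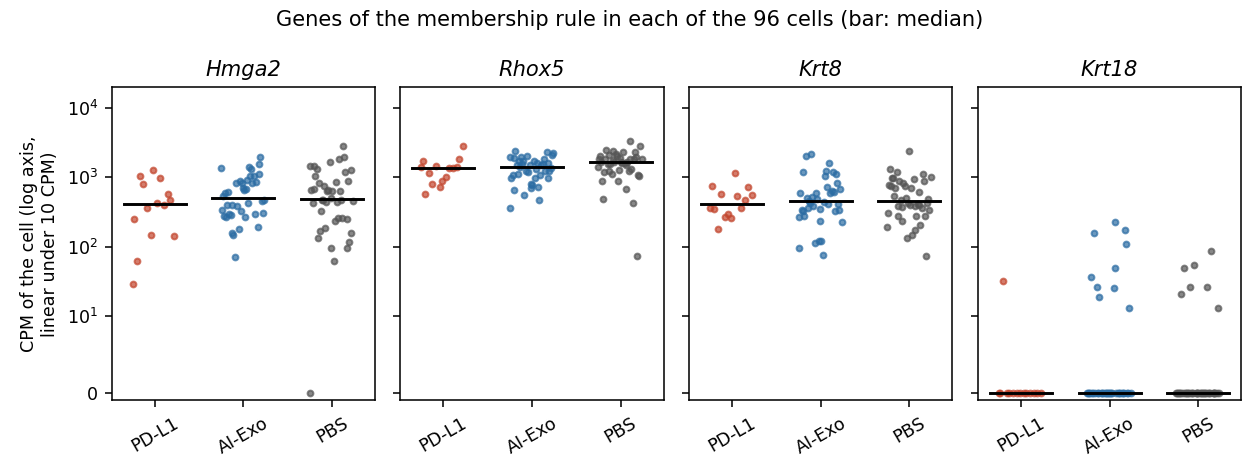
CPM of the 4 genes of the rule in each of the 96 members (points), by library, with bars at the medians, on an axis that is linear under 10 CPM and logarithmic above. Rhox5 and Krt8 lay within similar ranges in the 3 libraries, and most members had no Krt18 UMI.

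Of the 20 genes that stood farthest above all other cells, 3 were genes of the rule, and the cytidine deaminase gene Cda, the ankyrin G gene Ank3, Twist1, Twist2 and Prrx1 were among the rest. The highest of the 20 was Pthlh, which encodes parathyroid hormone-related protein, at 125, 151 and 109.6 CPM in PD-L1, AI-Exo and PBS members, and at most 1.38 CPM in other cells of any library. Sox9, a transcription factor of cartilage and of epithelial progenitors, stood at 148, 205 and 151 CPM, against at most 2.84 CPM in other cells. The actin-binding Cald1 stood at 766, 772 and 824 CPM, the collagen receptor gene Ddr2 at 155, 161 and 167 CPM, and Hspg2, which encodes perlecan, at 142, 128 and 129.9 CPM. These last 4 were picked from the 20 after their values were seen, and each of the 5 genes with levels given differed between libraries by under 1.5-fold.

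Several secreted and growth genes were abundant. Spp1, which encodes osteopontin, stood at 3853, 2988 and 3546 CPM, against at most 329.5 CPM in other cells, and the monocyte attractant Ccl2 at 1804, 3006 and 2263 CPM. Myc, the growth-promoting transcription factor, stood at 919.8 [856 to 987], 1580.3 [1526 to 1636] and 1269.5 [1222 to 1318] CPM, and brackets here and later are 95% intervals for counting error. Other cells had Myc at 109, 116 and 90.1 CPM. Rhox2h, from a tandem family of near-identical copies, stood at 137, 125 and 147 CPM, and reads of its copies may not be told apart.

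Sex-linked genes set the members apart from the other cells. The Y-linked gene Ddx3y stood at 3.54, 4.41 and 4.25 CPM in members, against 134, 139.5 and 122 CPM in the other cells of PD-L1, AI-Exo and PBS. Eif2s3y, also Y-linked, stood at 5.90, 2.94 and 1.42 CPM in members, against 93.7, 93.1 and 103 CPM in other cells. Xist, which silences the second X chromosome of female cells, had no UMI in members, which at 3 UMIs per library allows up to 3.54, 1.47 and 1.42 CPM, and was under 0.04 CPM in other cells. What set these levels was not tested.

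Members were deep cells. Their medians were 52981, 44710 and 46160.5 UMIs in PD-L1, AI-Exo and PBS, against 3945, 4413 and 4353 UMIs in other cells. In total they held 846932, 2040133 and 2117407 UMIs, so PD-L1 values rest on the fewest UMIs, and its 2 deepest cells supplied 140700 and 136124 UMIs. Barcodes were shared by 23 to 33 cells between pairs of libraries but by no member. No member had a doublet score of 0.15 or more, yet 2, 8 and 3 members held at least 60 UMIs of another cell type's marker list. Those 13 are called mixed members.

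The rule also left out barcodes. Of those that met the Hmga2, Rhox5 and keratin conditions, 12 of 26 in PD-L1, 10 of 50 in AI-Exo and 12 of 54 in PBS held a T or B cell UMI. That is 46.2% [26.6 to 66.6], 20% [10.03 to 33.7] and 22.2% [12.0 to 35.6], by exact Clopper-Pearson intervals. Of these barcodes 7, 8 and 6 held a single such UMI, and their median depths were 60152, 55771 and 61827.5 UMIs.

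Members made up 0.144% [0.0790 to 0.242] of cells in PD-L1, 0.383% [0.273 to 0.521] in AI-Exo and 0.449% [0.324 to 0.606] in PBS. The PD-L1 interval did not overlap the others, and those of AI-Exo and PBS overlapped. With the barcodes left out for T or B cell UMIs, the share in PD-L1 was 0.268% (26 cells), against 0.478% (50 cells) in AI-Exo and 0.577% (54 cells) in PBS. The statement on overlap covers members only, and no intervals were computed for these wider shares. The intervals cover counting error only, and since every group is 1 library, no difference described here could be checked in a replicate or tested. Loss of cells in handling, recovery of tumour cells and tumour burden cannot be told apart.

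In PD-L1 members, transcripts of secreted EGF receptor ligands, of a semaphorin and its receptor and of hypoxia-responsive genes were lower than in PBS members, and those of G2/M genes were higher. The axon guidance ligand gene Sema3a stood at 94.5 CPM in PD-L1 members, against 552 CPM in PBS members. Ereg and Areg, which encode epiregulin and amphiregulin, stood at 90.9 and 60.2 CPM, against 408 and 179.9 CPM. Over all 8261 genes with a mean of at least 10 CPM in the 2 libraries, 370 (4.48%) were higher by at least 1.5-fold in PD-L1 and 644 (7.8%) lower, and the median log2 ratio was -0.05. Ratios are log2 of CPM plus 10 in the first library over CPM plus 10 in the second, which draws low genes toward 0.

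Sema3a had the lowest named ratio, -2.43 [-2.74 to -2.13], and stayed between -3.20 and -2.06 under the alternatives run. Plxna4, which encodes a co-receptor for class 3 semaphorins, stood at 9.45 CPM in PD-L1, against 69.0 CPM in PBS (-2.02). In AI-Exo members, Sema3a was 526 CPM and Plxna4 46.1 CPM.

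Ereg was lower at -2.05 [-2.37 to -1.74], and at -1.44 with the barcodes holding T or B cell UMIs, and Areg at -1.44 [-1.82 to -1.06]. Of the 18 chemokine, cytokine and growth factor genes measured, 7 were lower in PD-L1 (Ereg, Areg, Vegfa, Lif, Vegfc, Ccl5 and Csf2), and 1 was higher, the monocyte attractant Ccl7. Over all genes, 7.8% were lower and 4.48% higher. Ccl7 stood at 287 CPM in PD-L1, against 94.0 CPM in PBS (1.51), but 44.9% of its PD-L1 UMIs came from 1 cell, and the ratio of per-cell means was 0.36. Both EGF receptor ligands stayed lower by over 1.5-fold under every alternative run, and the receptor gene Egfr was at 2.36 CPM in PD-L1 and 0.472 CPM in PBS members.

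Hypoxia-responsive genes were mostly lower in PD-L1 members: 12 of 17 measured were lower by 1.5-fold, beside 7.8% of all genes, and none was higher, with a median of -0.92. Hilpda, which encodes a lipid droplet protein induced in hypoxia, stood at 126 CPM in PD-L1, against 422 CPM in PBS (-1.66 [-1.95 to -1.39]). Vegfa, the angiogenic growth factor, stood at 68.5 CPM, against 200.2 CPM (-1.42), and Ndrg1, a stress-responsive gene, at 116 CPM, against 360.3 CPM (-1.56). Slc2a1, which encodes the glucose transporter GLUT1 and whose promoter is shown above, stood at 42.5 CPM, against 152 CPM (-1.62).

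Single cells weighed on part of this difference. One PBS cell held 43.9% of the PBS UMIs of Slc2a1, and without the 2 deepest members of each library its ratio was -0.67 and the list median -0.33. Without mixed members Slc2a1 was at -0.85. Ndrg1 was -0.31 by the mean of per-cell CPM. Summed over the list, the median PD-L1 member had 929 CPM (lowest 483, highest 2295), against 1324 CPM in PBS (131 to 6602), and 6 of 14 PD-L1 members lay above the PBS median. The groups overlapped, and the PBS range reached higher. With the barcodes holding T or B cell UMIs, the list median was -0.49, Hilpda was at -1.05, Ndrg1 at -0.81 and Slc2a1 at -0.70.

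Glycolysis genes were lower by less. Of 17 measured, 5 were lower in PD-L1, beside 7.8% of all genes, and none higher, with a median of -0.50. Pgk1, which encodes phosphoglycerate kinase, stood at 516 CPM in PD-L1, against 928 CPM in PBS (-0.83), and Hk2, the gene of hexokinase 2, at 79.1 CPM, against 189.8 CPM (-1.17). Per cell, the medians of the list were 5756 CPM in PD-L1 and 5819 CPM in PBS. With the barcodes holding T or B cell UMIs the list median was -0.17 and Pgk1 was at 0.04.

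G2/M genes, which drive mitosis, were higher in PD-L1 members: 23 of 30 passed 1.5-fold, beside 4.48% of all genes, none was lower, and the median was 0.94. Ube2c, which encodes the ubiquitin-conjugating enzyme of the anaphase-promoting complex, stood at 847 CPM in PD-L1, against 217 CPM in PBS (1.92 [1.75 to 2.08]). The mitotic kinesin gene Kif20a stood at 66.1 CPM, against 12.3 CPM (1.77), and Cdk1, the mitotic kinase, at 253 CPM, against 107 CPM (1.17). Without the 2 deepest members of each library Kif20a was at 0.74, and Cdk1 at 0.47 was under 1.5-fold, and with the barcodes holding T or B cell UMIs they were at 0.90 and 0.39. Mki67 and Top2a, common proliferation markers, stayed under 1.5-fold at 0.33 and 0.51, and Ccnb2 and Ckap2 were at -0.10 and -0.24.

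Per cell, the G2/M sum had a median of 3795 CPM in PD-L1 (160 to 10874) and 901 CPM in PBS (0 to 7515), and 11 of 14 PD-L1 members lay above the PBS median. The ranges overlapped for most of their length. The deepest PD-L1 cell supplied 59.0% of the Ube2c UMIs there, and without the deepest member of each library Ube2c was at 1.06 and the list at 0.70. Barcodes left out for T or B cell UMIs went the other way, with G2/M medians of 1130 CPM in PD-L1 and 3588 CPM in PBS. Including them gave a list median of 0.11 (0.55 with only those of 1 such UMI) and Top2a at -0.35, so the higher G2/M level is a statement about the cells inside the rule.

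G1/S and replication genes did not follow the G2/M genes: their median was -0.02 in PD-L1. None of 28 was higher and 1 was lower, beside 4.48% and 7.8% of all genes, so these counts lay near those shares. After each cell was thinned to 5000 UMIs, a Top2a UMI was found in 6 of 13 PD-L1 and in 23.8% of PBS members, and a Mki67 UMI in 4 of 13 and in 21.4%. Unthinned shares were 78.6% and 59.5% for Top2a and 71.4% and 54.8% for Mki67. Spearman's rho between G2/M and hypoxia sums was computed across cells of a library. It was -0.43 in PD-L1 (n = 14), -0.30 in AI-Exo (n = 40) and 0.03 in PBS (n = 42). Both sums share each cell's depth.

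**Figure D3:**
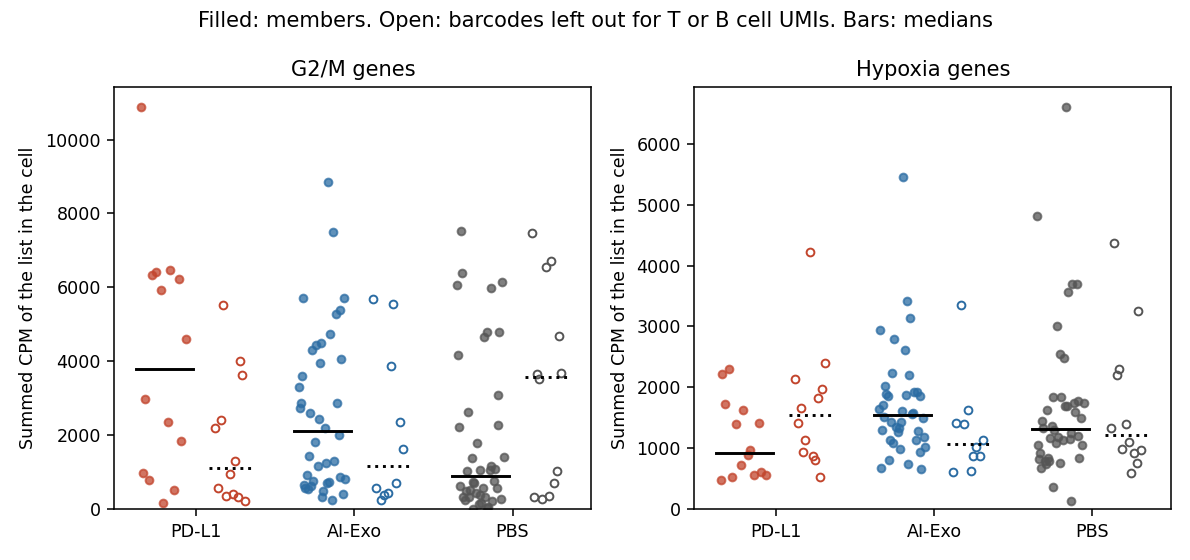
Summed CPM of the G2/M list (left) and the hypoxia list (right) in each member (filled points) and in each barcode left out for T or B cell UMIs (open points), by library, with medians as bars (dotted for barcodes left out). Median G2/M sums were 3795, 2109.5 and 901 CPM in PD-L1, AI-Exo and PBS members, but 1130, 1170 and 3588 CPM in the barcodes left out.

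Type I interferon genes were higher in 5 of 8 measured cases in PD-L1 members, beside 4.48% of all genes, with a median of 0.60 (0.44 without mixed members). Isg15, an interferon-induced ubiquitin-like protein gene, stood at 79.1 CPM in PD-L1, against 20.8 CPM in PBS (1.53), and was at 0.95 without mixed members. It differed in the same direction among the other cells, at 621 CPM in PD-L1 and 265 CPM in PBS. Ifitm1, which encodes an interferon-induced membrane protein, had the highest named ratio at 148 CPM, against 9.92 CPM (2.98 [2.57 to 3.35]). One cell held 57.6% of its PD-L1 UMIs, and it was at 2.01 without mixed members. Ifitm1 was also higher in AI-Exo than in PBS members, at 1.76.

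Neutrophil markers moved with the PD-L1 library. All 6 measured were higher in PD-L1 members, beside 4.48% of all genes, with a median of 2.27. S100a8 stood at 414 CPM, against 40.6 CPM in PBS (3.07, and 0.65 without mixed members). A pair of PD-L1 cells held 814 and 371 of the 1262 UMIs of the list, and without mixed members the list median was 0.59. Hcar2, a metabolite receptor gene, was at 1.55 with all members and at 0.22 without the mixed ones. MHC class II genes were lower in 5 of 7 cases, beside 7.8% of all genes, with a median of -1.04 (-0.29 without mixed members). The part of other cells' RNA in the interferon values was not tested.

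Other named genes higher in PD-L1 were the immediate early gene Egr1 (64.9 CPM, against 7.08 CPM in PBS), the surface protein gene Plet1 (119, against 28.8), the cilia and flagella gene Cfap45 (98.0, against 26.4) and Xpnpep3, which encodes a mitochondrial aminopeptidase (74.4, against 16.5). A single cell held 73% of the PD-L1 UMIs of Xpnpep3. Among named genes that were lower were the glycosyltransferase gene Galntl6 (24.8 CPM in PD-L1, against 101 CPM in PBS), Ttc39c (24.8, against 116), the phosphodiesterase gene Pde4b (33.1, against 117), the transcription factor gene Bhlhe40 (18.9, against 77.5) and Tnfrsf9, which encodes the receptor 4-1BB (10.6, against 51.0). Several of these depended on the cells or the calculation. Thinning took Xpnpep3 to 0.06, Bhlhe40 to 0.09, Cfap45 to 0.44 and Tnfrsf9 to -0.41, all under 1.5-fold in size, and with the barcodes holding T or B cell UMIs Xpnpep3 was at 0.96 and Tnfrsf9 at -0.88. Pde4b was at -0.89 by the mean of per-cell CPM.

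WNT, TGF-beta and BMP pathway genes were lower in 6 of 12 measured cases in PD-L1, with a median of -0.63, and higher in none. Sterol and lipid synthesis genes were lower in 5 of 18, with a median of -0.39, and Hmgcs1, an early enzyme of cholesterol synthesis, stood at 47.2 CPM, against 130.4 CPM in PBS (-1.29). Nuclear-encoded respiratory chain genes passed 1.5-fold in 0 of 22 cases, with a median of 0.07. MYC and ribosome biogenesis genes were higher in 1 of 20 and lower in none. Over all genes, 4.48% were higher and 7.8% lower, so the MYC count of higher genes lay near the share over all genes.

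Matrix genes divided the libraries without moving as a group. Of 15 mesenchymal and matrix genes measured in PD-L1 against PBS, 3 were higher and 2 lower, beside 4.48% and 7.8% of all genes. The fibrillar collagen gene Col3a1 stood at 189, 51.0 and 89.3 CPM in PD-L1, AI-Exo and PBS members, and Sparc, which encodes a collagen-binding matrix protein, at 161, 54.4 and 88.3 CPM. Both were highest in PD-L1 and lowest in AI-Exo. Their ratios in PD-L1 were 0.48 and 0.39 without the 2 deepest members of each library, under 1.5-fold. Fn1, the fibronectin gene, stood at 109, 282 and 252 CPM, and its ratio of -1.14 in PD-L1 to PBS turned to 0.30 with the barcodes holding T or B cell UMIs.

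In AI-Exo members, 6 of 19 genes of MHC class I presentation and 5 of 13 of the interferon gamma response were higher by 1.5-fold than in PBS members, beside 3.79% of all genes. Over 8371 genes, 317 (3.79%) were higher and 159 (1.9%) lower, with a median of 0.02. The balance of the counts depended on the scaling and the cells: 265 were higher and 209 lower with TMM scaling, 312 and 280 without mixed members, and 128 and 129 with the barcodes holding T or B cell UMIs. The comparison uses the same PBS library as that of PD-L1, so the comparisons are not independent.

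None of the 19 class I presentation genes was lower, and their median was 0.35. Nlrc5, the transactivator of class I genes, stood at 30.4 CPM in AI-Exo, against 8.03 CPM in PBS (1.16 [0.72 to 1.55]). The non-classical class I gene H2-Q7 stood at 100.5 CPM, against 40.6 CPM (1.13), and the peptide transporter gene Tap1 at 42.2 CPM, against 20.8 CPM (0.76). The immunoproteasome subunits Psmb9 and Psmb10 and H2-Q4 were the other three, at 0.68, 0.65 and 0.60. These calls lay close to the threshold. Without the 2 deepest members of each library Psmb9, Psmb10 and H2-Q4 were at 0.56, 0.58 and 0.55, under 1.5-fold, and with the barcodes holding T or B cell UMIs Tap1, Psmb10 and H2-Q4 were at 0.49, 0.53 and 0.51, also under it. H2-Q genes are close copies of each other, so their separate values are uncertain.

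The light chain gene B2m stood at 1369.5 CPM in AI-Exo, against 959.7 CPM in PBS (0.51), and the classical heavy chain genes H2-K1 and H2-D1 were at 0.35 and 0.12, all under 1.5-fold. Summed over the list, 33 of 40 AI-Exo members lay above the PBS median of 4549 CPM, and their own median was 6402 CPM. The list median lay between 0.25 and 0.44 under all alternatives run, and was 0.31 without mixed members. Other cells showed H2-Q7 at 454 CPM in AI-Exo and 272 CPM in PBS.

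Interferon gamma response genes were higher in 5 of 13 measured cases in AI-Exo (Gbp2, Irf8, Cxcl10, Igtp and Gbp7), and 1 was lower, Cd274. Gbp2, a guanylate-binding protein gene, stood at 51.0 CPM in AI-Exo, against 9.45 CPM in PBS (1.65 both with and without mixed members, and 0.9998 without the 2 deepest). Cxcl10, a T cell attractant, stood at 116 CPM, against 42.5 CPM (1.26), and was at 0.36 by the mean of per-cell CPM. In PD-L1 members the 18 class I genes measured had a median of 0.03, and 1 of them, H2-Q7, was lower.

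Several of the highest genes moved with other cell types' RNA. Ccl5, a lymphocyte chemokine gene, stood at 163 CPM in AI-Exo, against 25.03 CPM in PBS (2.31), but at 0.70 without mixed members and 0.12 without members of 3 or more UMIs of the leukocyte gene Ptprc. Scgb1a1, the club cell secretoglobin gene, stood at 120 CPM, against 15.1 CPM (2.37), with 84.8% of its UMIs in 1 cell, and at -0.10 without mixed members. Chil3, a macrophage chitinase-like gene, was at 1.79 with all members and at -0.28 without the mixed ones. Pan-leukocyte genes were higher in 6 of 7 cases in AI-Exo members, and T and NK markers in 2 of 2, beside 3.79% of all genes. Of the 323 UMIs of the T and NK list, 2 cells held 155 and 121.

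Tmsb4x, which encodes an actin-sequestering peptide, stood at 1046 CPM in AI-Exo, against 378 CPM in PBS (1.44), and was at 1.31 without mixed members but at 0.66 with the barcodes holding T or B cell UMIs. Gdf15, a stress-induced cytokine gene, stood at 80.9 CPM, against 21.7 CPM (1.52), and was at 0.98 without mixed members and 0.82 with those barcodes. Ctla2a, a cysteine protease inhibitor gene, stood at 50.5 CPM, against 1.42 CPM (2.41), and was at 0.93 without mixed members.

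Stress response genes were higher in 4 of 24 cases in AI-Exo, and none was lower, with a median of 0.14. Atf3, a stress-induced transcription factor gene, stood at 532 CPM in AI-Exo, against 261 CPM in PBS (an interval of 0.86 to 1.15 for the log2 ratio), and Hspa5, which encodes the chaperone BiP, at 1220.0 CPM, against 743 CPM (0.71, and 0.53 without mixed members, under 1.5-fold). The other two were Ppp1r15a and Sesn2. In PD-L1 members 4 of 24 were also higher than in PBS and none was lower, with a median of 0.28. Over all genes, 4.48% were higher in PD-L1. Atf3 in PD-L1 members was at 0.05. Ccn1, which encodes a matricellular protein, stood at 359 CPM in AI-Exo, against 206 CPM in PBS (0.77), and Phlda1, a gene induced by growth factor signalling, at 482 CPM, against 315 CPM (0.60, and 0.43 with the barcodes holding T or B cell UMIs). RAS and MAPK output genes as a list were higher in 3 of 21 cases, and none was lower. Over all genes, 3.79% were higher and 1.9% lower in AI-Exo.

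The lowest named ratio in AI-Exo was that of Adamtsl5, a secreted matrix protein gene, at 21.6 CPM, against 72.7 CPM in PBS (-1.39), where 51.9% of the PBS UMIs came from 1 cell. Cx3cr1, the fractalkine receptor gene, stood at 29.4 CPM, against 90.7 CPM (-1.35, and -0.53 with the barcodes holding T or B cell UMIs). The cold-inducible RNA-binding protein gene Rbm3 stood at 586 CPM in AI-Exo, against 1116 CPM in PBS (-0.92), and was lower in PD-L1 members too, at 555 CPM (-0.99). Other cells had Rbm3 at 647, 713 and 1150 CPM in PD-L1, AI-Exo and PBS, so the same order of AI-Exo and PD-L1 against PBS was present outside the members. Hnrnpa0, an RNA-binding protein gene, stood at 413, 91.7 and 193 CPM in members and at 313, 89.8 and 185 CPM in other cells.

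G2/M genes were higher in 5 of 30 cases in AI-Exo members, with a median of 0.34, and none was lower. Over all genes, 3.79% were higher and 1.9% lower in this comparison with PBS. Ube2c stood at 355 CPM in AI-Exo, against 217 CPM in PBS (0.69), and 27 of 40 AI-Exo members lay above the PBS median for the list. With the barcodes holding T or B cell UMIs the list median was 0.06 and Ube2c was at 0.32. Hypoxia genes were lower in 2 of 17, with a median of -0.26 that turned to 0.13 by the mean of per-cell CPM. Glycolysis genes were lower in 1 of 17, Ldha, the lactate dehydrogenase gene, at 469.6 CPM, against 731 CPM (-0.63). Ldha fell short of 1.5-fold by the mean of per-cell CPM (-0.50), without the deepest member of each library (-0.55) and with the barcodes holding T or B cell UMIs (-0.48).

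**Figure D4:**
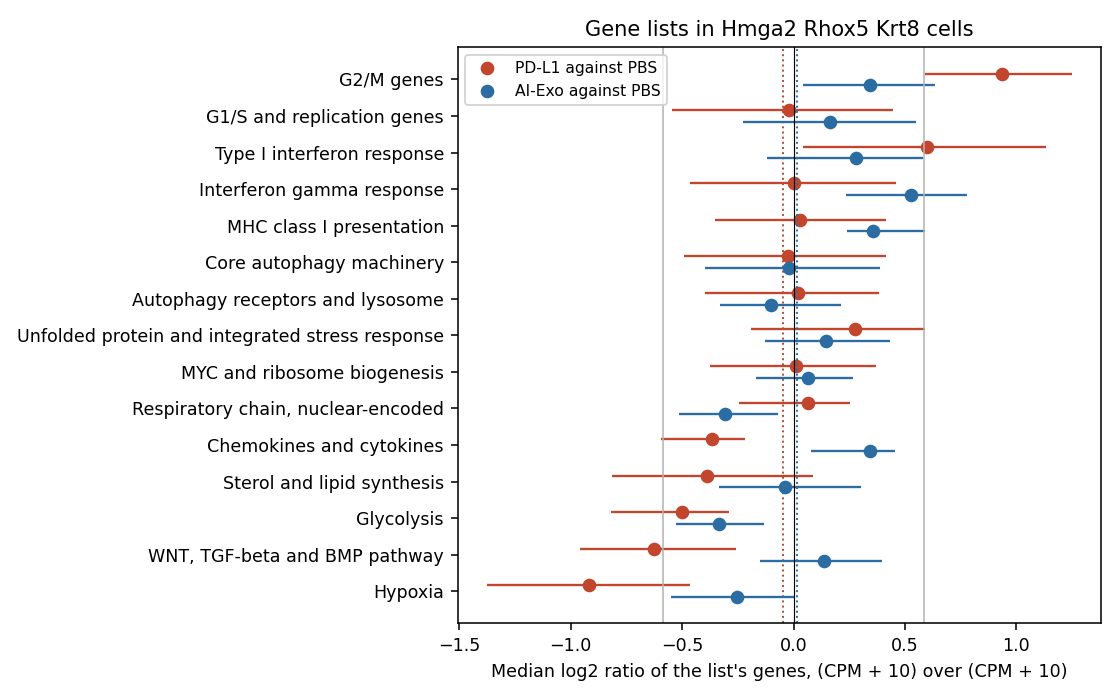
Median log2 ratio of 15 gene lists in PD-L1 (red) and AI-Exo (blue) members against PBS members, with lines between the medians of the genes' own 95% counting bounds, grey lines at 1.5-fold and dotted lines at the median of all genes tested. The G2/M and hypoxia lists were farthest from 0 in PD-L1, at 0.94 and -0.92, and both autophagy lists were within 0.11 of 0 in both libraries.

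**Figure D5:**
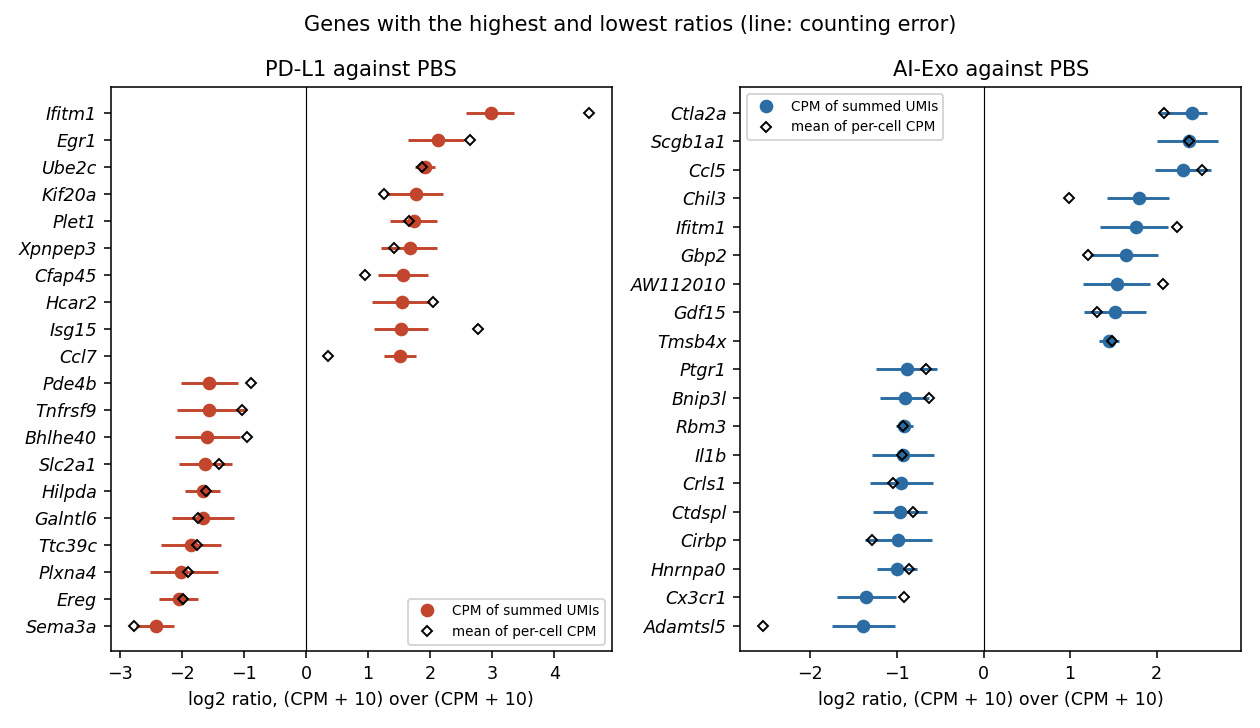
Log2 ratios of the reported genes with the highest and the lowest named ratios in PD-L1 (left) and AI-Exo (right) against PBS, from summed UMIs (filled points, with 95% counting intervals) and from the mean of per-cell CPM (diamonds). Ccl7 in PD-L1 moved from 1.51 to 0.36 between the calculations, and Sema3a and Ereg stayed under -1.9 in both.

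Setting AI-Exo members against PD-L1 members directly, 1005 of 8332 genes (12.1%) were higher and 372 (4.46%) lower in AI-Exo, with a median of 0.05. With TMM scaling 842 were higher and 505 lower. EGF receptor ligands and Sema3a stood out on the higher side: Ereg at 519.6 CPM in AI-Exo, against 90.9 CPM in PD-L1 (2.39 [2.09 to 2.71]), Sema3a at 526 CPM, against 94.5 CPM (2.36, and 1.61 without the 2 deepest members), and Areg at 287 CPM, against 60.2 CPM (2.08). H2-Q7 stood at 100.5 CPM, against 17.7 CPM (1.995), and was at 0.77 with the barcodes holding T or B cell UMIs. Ccl5 had the highest ratio (3.45) and was at 1.21 without mixed members.

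On the lower side were Ptn, which encodes the growth factor pleiotrophin, at 3.43 CPM in AI-Exo, against 61.4 CPM in PD-L1 (-2.41), Hnrnpa0 (-2.06) and Kif20a (-1.57). Without the 2 deepest members of each library Ptn was at -1.65 and Kif20a at -0.57. In PBS members Ptn was at 47.7 CPM, with 81.2% of its UMIs in 1 cell. Hypoxia genes were higher in 9 of 17 cases in AI-Exo, with a median of 0.76, and G2/M genes lower in 13 of 30, with a median of -0.52. Over all genes, 12.1% were higher and 4.46% lower. The G2/M median was -0.06 without the 2 deepest members of each library and -0.11 with the barcodes holding T or B cell UMIs, and the hypoxia median was 0.56 and 0.18.

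Autophagy genes, the process named in the series' title, differed little. Of the core machinery, 0 of 32 genes passed 1.5-fold in either direction in AI-Exo against PBS members, with a median of -0.02. In PD-L1 against PBS, 1 of 30 was higher (Atg2a, a lipid transfer protein gene) and 1 lower (Ulk2, an initiating kinase gene), with a median of -0.02. These shares lie at or below those over all genes. Atg2a and Ulk2 were at 0.39 and -0.57 with the barcodes holding T or B cell UMIs, under 1.5-fold.

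Of 27 autophagy receptor and lysosomal genes measured in AI-Exo against PBS, 1 was higher (Hexa, a lysosomal hexosaminidase gene) and 2 lower (Bnip3 and Bnip3l, mitophagy receptor genes that are also hypoxia-responsive), with a median of -0.10. Of 29 in PD-L1 against PBS, 1 was higher (Hexa) and 3 lower (Tollip, Bnip3 and Bnip3l), with a median of 0.02. Over all genes, 1.9% were lower in AI-Exo and 7.8% in PD-L1. The count lower in PD-L1 lay close to that share, and the count in AI-Exo rests on Bnip3 and Bnip3l alone. Hexa was under 1.5-fold without mixed members, at 0.45 in AI-Exo and 0.39 in PD-L1, and Bnip3l in AI-Exo was at -0.40 without the 2 deepest members of each library. Sqstm1, which encodes the receptor p62, stood at 166 [140 to 196], 212 [193 to 233] and 221 [201 to 241.5] CPM in PD-L1, AI-Exo and PBS members. Map1lc3b, the gene of LC3B, stood at 207, 219 and 251 CPM, and Becn1, the gene of Beclin 1, at 61.4, 47.5 and 39.2 CPM. RNA levels do not measure autophagic flux.

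Of 11 checkpoint ligand and suppressor genes measured in each comparison with PBS, 2 were lower in PD-L1 and 1 in AI-Exo, and none was higher. The medians were -0.32 and 0.03, and over all genes 7.8% and 1.9% were lower. In AI-Exo against PD-L1, 3 of 12 were higher and none lower, beside 12.1% of all genes higher. Cd274, which encodes PD-L1, stood at 13.0 [6.48 to 23.2], 15.7 [10.7 to 22.1] and 48.2 [39.3 to 58.5] CPM in PD-L1, AI-Exo and PBS members, against 380.2, 420.3 and 261 CPM in the other cells. One cell held 80.4% of its UMIs in PBS members, and the ratio of PD-L1 to PBS was -1.34 with all members and 0.36 without the 2 deepest of each library. That of AI-Exo to PBS was -1.18 and 0.17, so the direction did not hold without those cells. Cd47, which encodes a signal against phagocytosis, stood at 161, 147 and 204 CPM.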

How the data were processed

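Single-cell RNA libraries made with 10x Genomics 3′ chemistry, per the labels' protocols, were analysed from matrices of UMI counts per gene and barcode, deposited by the authors and not normalized. Cell Ranger made them, version 7.1.0 per the file headers and 3.0.2 per the submitters' processing notes. Neither genome build nor annotation is given in the sources used here, and the use of intronic reads is not stated either. Matrices held 65997942, 76512500 and 68386729 UMIs in PD-L1, AI-Exo and PBS, and 32285 genes.

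Barcodes with at least 500 UMIs, at least 200 genes and at most 20% mitochondrial UMIs were kept as cells, 9697, 10457 and 9359. Members' UMIs were summed per library and scaled to CPM. Genes were compared at a mean of 10 CPM or more in the 2 libraries as log2 of CPM plus 10, and called at a 1.5-fold difference in size. Since each group is 1 library, nothing was tested. Sums carry exact Poisson intervals, shares Clopper-Pearson intervals and ratios exact conditional binomial intervals, all at 95% and for counting error only, since cells are not replicates. Scrublet in scanpy 1.11.5 scored doublets, and none was removed. RNA free in the droplets, estimated from barcodes of at most 100 UMIs, could supply at most 0.503%, 0.902% and 0.543% of the members' summed UMIs. This bound is not one for single cells. It was set by H2-Eb1 in PD-L1 and by Igkc in AI-Exo and PBS. Members were chosen to hold no UMI of the T and B cell genes of the rule, which may lower it. TMM factors came from edgeR 4.0.16. Other steps used Python 3.11.15 with numpy 2.4.6, scipy 1.17.1 and pandas 2.3.3, and the calling of changes was tested on simulated data. Promoters are from RefSeq on GRCm38.p6 and were matched by symbol.

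Named genes were the 10 highest and 10 lowest ratios per pair among genes that reached 50 CPM in the higher library, with 30 UMIs, a UMI in 25% of that library's members and the same direction by per-cell means. Mitochondrial, ribosomal, predicted, sex-linked and marker-list genes, and genes that free RNA could explain, were left out of these. The ends of each list and its most abundant genes were also named, 1 result is not reported here, and further list members were named after their values were seen. Lung epithelial cells were barcodes without T cell, B cell or Ptprc UMIs, with 2 or more UMIs of Epcam, Krt8 and Krt18 and 20 or more of surfactant or Scgb1a1 genes. Endothelial cells had 3 or more UMIs of Pecam1 and Cdh5 and none of Ptprc or Epcam. The members, the 42 gene lists and the rules were chosen with earlier results of these data known.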

Additional observations from a re-analysis of the deposited data

How the results depend on the processing

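Alternatives were the mean of per-cell CPM, no deepest member, TMM scaling, other addends, floors and ratios, thinning to 5000 UMIs and no member with Ptprc. Chosen after seeing the data were no mixed members, no 2 deepest members, and adding barcodes with 1 or any T or B cell UMIs. Of values for single genes and lesser lists, 1590 stayed within the counting interval, 402 moved beyond it and 14 changed sign. Of shares, counts of genes and main lists, 307 stayed and 50 moved. Those that moved include the hypoxia median in AI-Exo against PBS, which changed sign. Counts of genes have no counting interval, so for them stayed does not mean within counting error. Genes higher in AI-Exo against PD-L1 went from 1005 to 696 without the deepest member of each library and were counted as stayed. By construction, the addend, floor and ratio change the counts, and thinning leaves so few UMIs that single UMIs outweigh the addend. Other causes were not tested.

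The share in PD-L1 was 0.268% with T or B cell barcodes. Genes higher in PD-L1 against PBS numbered 697 by per-cell means, 696 and 79 with addends of 1 and 50, 125 at 50 CPM, 2115 thinned, 82 at a ratio of 2 and 188 with T or B cell barcodes. Genes lower numbered 1110, 109, 217, 1806 and 105 for the addends, floor, thinning and ratio. In AI-Exo against PBS, genes higher numbered 643, 53, 105, 1476 and 59 for these settings, and 158 and 128 with barcodes of 1 or any T or B cell UMIs. Genes lower numbered 244 by per-cell means, 432, 15, 49, 1253 and 16, and 280 without mixed members. In AI-Exo against PD-L1, genes higher numbered 1525, 252, 408, 2099 and 242, and genes lower 650 by per-cell means, 719, 66, 142, 2151 and 67, and 220 and 180 with T or B cell barcodes.

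In PD-L1 against PBS, the G2/M median was 0.55 and 0.11 and the glycolysis median -0.15 and -0.17 with barcodes of 1 or any T or B cell UMIs, and the hypoxia median -0.41 with an addend of 50 and -0.33 without the 2 deepest members. In AI-Exo against PBS, the hypoxia median of -0.26 changed sign, to 0.13 by per-cell means, 0.052 thinned and 0.19 without the 2 deepest members. Leaving out the 2 deepest members put glycolysis at -0.13. Signs changed in PD-L1 against PBS for Bhlhe40 (0.087) and Ccl7 (-1.18) when thinned, for Pgk1 (0.040) and Fn1 (0.30) with T or B cell barcodes, and for Cd274 by per-cell means (0.49), thinned (1.36) and without the 2 deepest members (0.36). In AI-Exo against PBS they changed for Sparc (0.23) thinned, for Cd274 thinned (0.050), without mixed members (0.80) and without the 2 deepest (0.17), and without mixed members for Chil3 (-0.28), Il1b (0.38) and Scgb1a1 (-0.10).

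No paired analysis was possible because each group has 1 library. The PD-L1 members, 14 cells, held the fewest UMIs, 846932, and the spread between libraries of a group was not measured.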
